A study of Drosophila melanogaster with 2 samples.

Results

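The genes described are 9 genes of glycolytic enzymes (Hex-A, Pgi, Pfk, Tpi, Gapdh1, Gapdh2, Pgk, Eno and Pyk) and ERR, the gene of a nuclear receptor that is known to drive their transcription in Drosophila. They are 10 of 13945 protein-coding genes, and they were chosen by the pathway together with earlier peak results of these same data, so their peaks are given as a description with no test. The study mapped the binding of Fer1, a transcription factor of the basic helix-loop-helix (bHLH) family, by ChIP-seq. Whole embryos of Drosophila melanogaster, male and female together, were collected between 6 and 24 h of age. They came from a transgenic line that makes Fer1 with eGFP fused to its C-terminus, and an anti-GFP antibody recovered the fusion. The labels give 1 group of 2 biological replicates, with no other genotype, stage or treatment. They do not give the promoter that drives the transgene or the state of the resident Fer1 gene, and whole embryos mix all tissues.

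Glycolysis splits glucose to pyruvate in the cytosol. Hexokinase adds the first phosphate, phosphofructokinase commits the sugar to breakdown, and glyceraldehyde-3-phosphate dehydrogenase (GAPDH) starts the steps that return ATP and NADH. In Drosophila embryos ERR is known to switch these genes on together before larval growth, when the animal relies on aerobic glycolysis. Several steps have more than one gene copy, and in Drosophila some of the copies are used mainly in the testis. bHLH dimers bind the E-box, a 6-base site written CANNTG.

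The sequences shown lie within 50 bp of the summits of peaks, the positions of greatest enrichment. Those at Gapdh2 and Hex-A are shown because their signals were high and they hold no E-box. The summits at Pgk, Pyk and ERR had lower signals, some with an E-box and some without. A Pgk and an ERR window with an E-box are shown, and for Pyk both windows, without and with E-boxes. Windows with more than 30 bases of untranslated region, such as that of the main Eno summit, are not shown. Each is written 5′ to 3′ on the coding strand of its gene, from the RefSeq copy of the Release 6 genome (build dm6), with every CANNTG in capitals.
Gapdh2, summit 159 bp upstream of the transcription start site (TSS), chrX:15867936-15868036, plus strand: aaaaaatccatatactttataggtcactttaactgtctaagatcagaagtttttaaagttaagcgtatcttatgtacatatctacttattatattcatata
Hex-A, summit 172 bp upstream of the TSS, chrX:9585453-9585553, plus strand: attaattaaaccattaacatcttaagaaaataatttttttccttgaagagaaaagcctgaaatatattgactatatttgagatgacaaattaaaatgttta
Hex-A, summit 1751 bp upstream of the TSS, chrX:9583874-9583974, plus strand: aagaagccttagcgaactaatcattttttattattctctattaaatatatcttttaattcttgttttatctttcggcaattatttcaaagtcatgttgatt
Pgk, summit 267 bp upstream of an internal TSS, chr2L:2750364-2750464, minus strand: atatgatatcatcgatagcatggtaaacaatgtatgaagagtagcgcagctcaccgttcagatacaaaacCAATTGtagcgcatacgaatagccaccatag
Pyk, summit 392 bp upstream of the downstream TSS, chr3R:22368840-22368940, plus strand: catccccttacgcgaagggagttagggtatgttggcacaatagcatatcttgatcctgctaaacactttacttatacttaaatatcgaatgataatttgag
Pyk, summit 187 bp upstream of the downstream TSS, chr3R:22369045-22369145, plus strand: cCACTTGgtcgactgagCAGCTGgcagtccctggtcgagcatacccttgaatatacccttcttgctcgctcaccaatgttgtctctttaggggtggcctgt
ERR, summit 164 bp upstream of the downstream TSS, chr3L:8185784-8185884, minus strand: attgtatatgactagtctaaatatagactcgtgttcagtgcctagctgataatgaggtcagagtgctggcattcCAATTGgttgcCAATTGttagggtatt

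The windows varied in base content. G and C made up 23.8% of the Gapdh2 window, 20.8% of the nearer Hex-A window and 23.8% of the farther one. They made up 40.6% of the Pgk window, 37.6% and 54.5% of the Pyk windows and 39.6% of the ERR window. Windows not shown did not follow a split by signal or E-box, since the main Eno summit, with no E-box, had 44.6% and the ERR summit at the first TSS, with an E-box, had 28.7%. The median over all 7329 summit windows was 35.6%. The Pyk window nearer the TSS holds CAGCTG, the form bound by many tissue-specific bHLH dimers, and the ERR window holds CAATTG at 2 places. In both replicates the matching ERR summit lay outside that window, 108 bp (replicate 1) and 111 bp (replicate 2) from its centre.

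Peaks were taken from the authors' list past their threshold on reproducibility (the irreproducible discovery rate, IDR), called the thresholded list. It holds 7329 peaks with signal values from 110.1 to 4431 (median 182.1). The signal value is the authors' own, in a unit not stated in the sources used here, and is compared only within a list. Lists of 30000 peaks each were also deposited for the replicates (median signals of 35.7 in replicate 1 and 25.9 in replicate 2) and for both pooled. Read totals are not part of these lists, so depth is unknown. A promoter summit here is a summit within 1 kb of any annotated TSS of the gene.

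Of the 10 genes, 9 had a thresholded promoter summit, against 33.1% of all coding genes. The exception was Gapdh1. Each of the 10 has 2 or more annotated TSSs, and among all coding genes with 2 or more TSSs the share was 53.3%. Counting only summits whose nearest coding TSS belonged to the gene itself, the count was again 9, against 24.9% of coding genes. Across the 24 TSSs of these genes, 20 had a summit within 1 kb, against 33.9% of coding TSSs. A summit counts here at every TSS within 1 kb, so TSSs of the same gene can share it, as at Gapdh2, Hex-A, Pgi and Tpi. Within the gene or 5 kb of it, all 10 genes had a thresholded summit, against 58.8% of coding genes. These windows held 35 thresholded summits in all, of which 17 were promoter summits. Of the 35, 19 lay nearer to the TSS of another coding gene, so such summits are described below with their neighbours.

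The genes spread over most of the range of signal. Gapdh2, Hex-A and Eno lay among the 732 highest of the thresholded peaks, which held a promoter summit of 4.77% of coding genes. Their ranks were 7, 57 and 127. Pgk (807), Pyk (1910) and ERR (2307) followed, and Pfk (4661), Tpi (5692) and Pgi (5910) lay in the lower part. The median over the 9 genes was 275.2, and over all coding genes with a promoter summit it was 202.2.

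**Figure D1:**
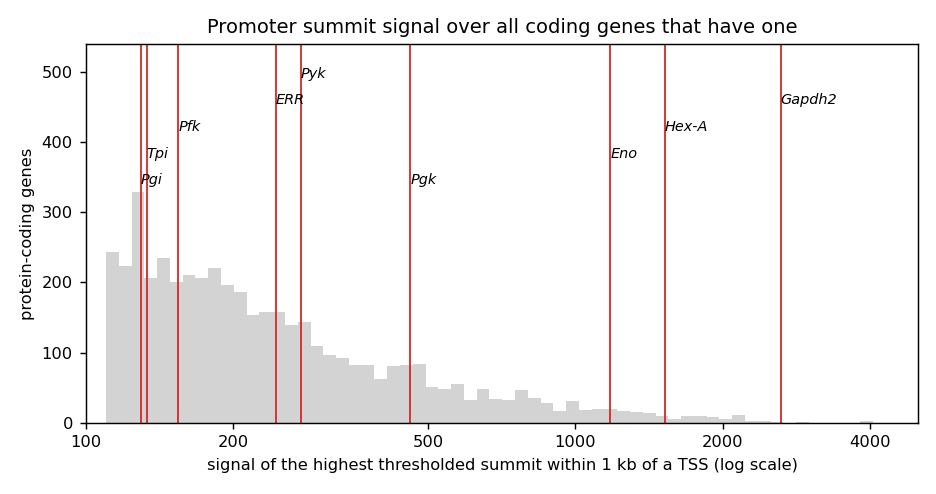
Histogram of the signal of the highest thresholded promoter summit (x axis, log scale) over the protein-coding genes that have one (y axis, number of genes), with red lines at 9 of the 10 described genes. Gapdh2 (2622), Hex-A (1520) and Eno (1177) lie in the upper tail, and Pgi, Tpi and Pfk lie between 129.8 and 154.8.

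The first enzymes of the pathway stood at opposite ends. Hex-A encodes the main hexokinase and lies on the plus strand of X from 9585675 to 9589813. Its promoter summit, 172 bp upstream, had a thresholded signal of 1520. The signal was 903.5 (rank 60) in replicate 1 and 635.9 (rank 55) in replicate 2. The peak was 804 bp wide, against a median of 360 bp for the list. A separate summit 1751 bp upstream had a signal of 956.0 (rank 201; 205 in replicate 1 and 150 in replicate 2), and the nearest TSS of another coding gene was 3937 bp away. It lay 253 bp upstream of the non-coding gene lncRNA:CR45541. Other summits lay 3655 bp upstream (113.8; 2033 bp upstream of LPCAT, the nearest coding gene), in the 3' UTR (120.8) and past the gene (221.9).

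Pgi and Pfk had weak summits. Pgi encodes phosphoglucose isomerase (2R, 8910900 to 8914069, minus strand), and its promoter summit, 22 bp upstream, had a signal of 129.8. It ranked 5910 in the thresholded list, with signals of 79.0 (rank 6000) in replicate 1 and 52.5 (rank 6518) in replicate 2. The other Pgi summit (126.4) lay past the gene, 58 bp upstream of CG30349. Pfk encodes phosphofructokinase (2R, 10109740 to 10117457, plus strand) and had 1 summit, with a thresholded signal of 154.8. The replicate signals were 95.2 (rank 4606) and 65.0 (rank 4816), so the replicates placed Pfk alike. That summit lay in the 5' UTR, 115 bp downstream of the internal TSS, and none lay within 1 kb of the upstream TSS of Pfk.

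Tpi was the least even of the enzymes between replicates. It encodes triosephosphate isomerase (3R, 30132981 to 30134599, minus strand). Its summit, 295 bp upstream, had a signal of 133.3 in the thresholded list. It had 89.2 in replicate 1 (rank 5048) but 42.1 in replicate 2 (rank 8692), below the 7329 highest peaks there. It also lay 114 bp upstream of the antisense gene asRNA:CR46082.

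Of the GAPDH genes, Gapdh2 lay near the top of the list and Gapdh1 had no promoter summit in it. Gapdh2 (FBgn0001092; X, 15868145 to 15869661, plus strand) had its promoter summit at 15867986, outside the transcribed part, with a thresholded signal of 2622. The replicate lists gave 1588 and 1035, at rank 7 in both. The summits in the replicates lay 3 bp and 1 bp from the thresholded one. Gapdh1 (FBgn0001091; 2R, 7791901 to 7793380, minus strand) had no summit within 1 kb of a TSS in the thresholded list, in either replicate list or in the pooled list, although 54.4% of coding genes had one in the pooled list. The lowest signal in the pooled list was 21.8. Nearest to its TSSs were weak summits past the end of the gene, with a pooled signal of 80.5 (rank 10454) 1661 bp downstream, 46.3 in replicate 1 (rank 11511) and 40.3 in replicate 2 (rank 9198). The only thresholded summit within 5 kb of Gapdh1 had a signal of 111.0 and lay 20 bp upstream of CG12825.

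The highest signal in the gene or within 5 kb was 23.6 times as high at Gapdh2 as at Gapdh1 in the thresholded list. It was 26.9 times as high in replicate 1 and 19.4 times in replicate 2. The Gapdh1 value is that of the summit beside CG12825, near the lowest thresholded signal (110.1). The ratio therefore does not compare promoter summits of both genes. Such a measure can favour either copy: Hex-C lies inside CG8079, whose promoter summit (2266) exceeded that of Hex-A (1520). The longest run of bases that the 614 bp Gapdh2 peak shares with Gapdh1 and its flanks of 1 kb was 12 bp and the longest run shared by the gene bodies was 38 bp. Other summits near Gapdh2, with signals of 484.5 and 124.1, lay 781 and 980 bp inside the next gene, CG16952.

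Pgk, the gene of phosphoglycerate kinase, had the most summits. It lies on the minus strand of 2L from 2746880 to 2753068, has 5 TSSs, and had 10 thresholded summits in the gene or within 5 kb. Of these, 5 were promoter summits, with signals of 460.3, 403.9, 360.7, 278.7 and 132.0. Those at 460.3 (300.9 in replicate 1 and 181.3 in replicate 2) and 403.9 (261.9 and 144.2) lay 240 and 267 bp upstream of internal TSSs. The one at 360.7 lay 301 bp inside Pgk and 33 bp upstream of an internal TSS of Bacc, a gene on the opposite strand that overlaps Pgk. The highest summit of the locus (535.2, rank 607) lay in a Pgk intron 1032 bp from a Pgk TSS and 409 bp upstream of the first TSS of Bacc, and it had the same position in both replicates. Before the gene, summits of 410.0, 238.5 and 122.9 lay 1645 to 2387 bp upstream of the first Pgk TSS, inside Bacc. Having 2 or more promoter summits was shared by 4 of the 10 genes (Pgk, Eno, Pyk and ERR), against 7.82% of coding genes. All 10 genes have 2 or more TSSs, against 26.5% of coding genes, and the share among such genes was not computed. The Pyk pair lay 205 bp apart, and the summits at the first TSS of Eno and of ERR were nearer to CG31937 and Atg18a.

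Part of the Pgk count came from summits set close together. Adjacent thresholded summits were never nearer than 199 bp anywhere in the list, and 3 Pgk pairs lay 199 or 202 bp apart. In the pair at 535.2 and 132.0, the weaker summit matched a replicate 2 summit at rank 29447 of 30000.

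Eno, the enolase gene (2L, 1724768 to 1729636, minus strand), had its main summit at an internal start. The summit, with a signal of 1177 in the thresholded list, lay in a 5' UTR 121 bp upstream of the most downstream TSS. It also lay 894 bp upstream of Rrp40, a gene on the opposite strand, and is the highest promoter summit of Rrp40 too. The replicate signals were 659.3 (rank 144) and 513.8 (rank 108). The first TSS had a summit of 190.8 at 168 bp upstream, and that summit lay 83 bp upstream of the opposite gene CG31937. A further summit (154.8) shared the main peak's interval. Summits past the gene lay 14 bp inside Rim2 (144.5) and 1210 bp inside it (118.6), and 1 before the gene (145.0) lay 6 bp inside CG17652.

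Pyk, the pyruvate kinase gene (3R, 22367536 to 22372746, plus strand), likewise had its promoter summits nearest to an internal start. Its promoter summits, at 275.2 and 195.9, lay in an intron 392 and 187 bp upstream of the downstream TSS. The first had signals of 167.4 and 106.6 in the replicates, and the second 122.6 and 87.9, so their order was kept. No thresholded summit lay within 1 kb of the upstream TSS. In the pooled list weaker summits lay 110 bp upstream (76.2, rank 11059) and 100 bp downstream (28.3, rank 25508) of it. A stronger thresholded summit 4800 bp upstream (559.5) lay 116 bp inside CG7071.

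ERR (3L, 8183361 to 8186671, minus strand) had a summit at each of its starts. The one 169 bp upstream of the first TSS had a signal of 244.7 and also lay 17 bp upstream of Atg18a, an autophagy gene on the opposite strand. The one 164 bp upstream of the internal TSS, in an intron, had 189.5, and the nearest TSS of another coding gene was 1023 bp away. The replicates differed here, since the first summit had 183.8 in replicate 1 (rank 1616) and 64.8 in replicate 2 (rank 4841). The internal one had 119.8 (rank 3212) and 69.4 (rank 4382), so it was the higher of the pair in replicate 2 alone. Its summits in replicates 1 and 2 lay 108 and 111 bp from the thresholded one, outside the window shown. The third summit within 5 kb (118.5) lay 67 bp upstream of MED24.

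**Figure D2:**
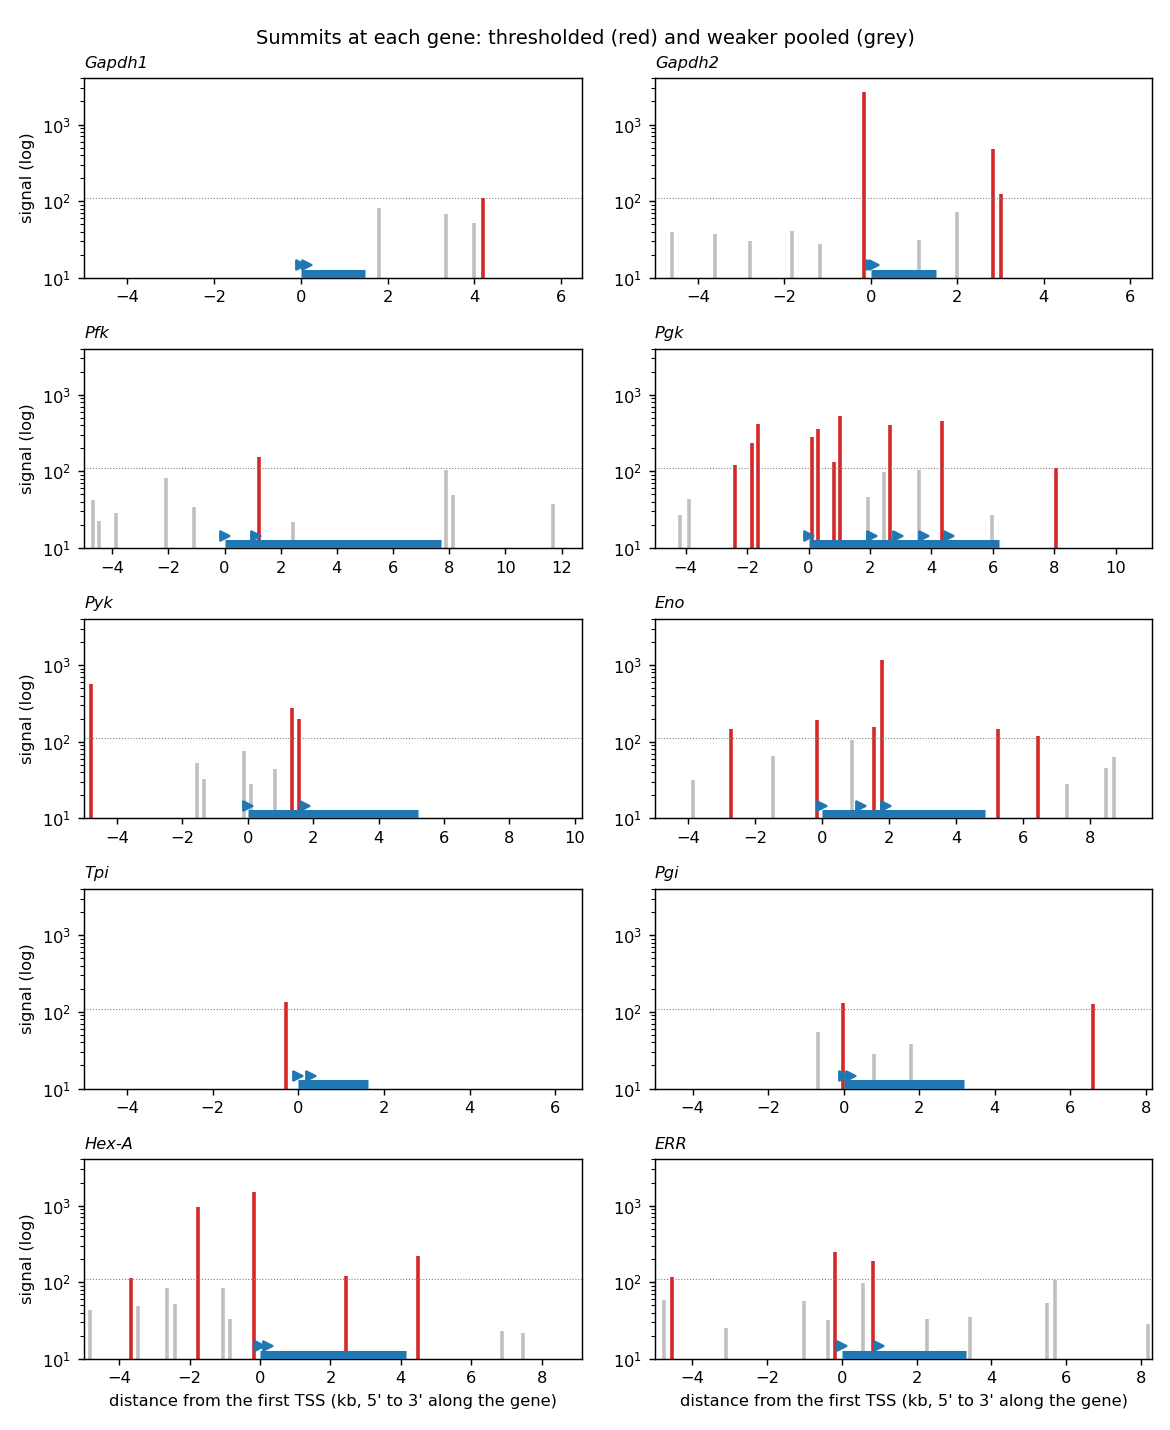
Summits in each gene and within 5 kb, as vertical lines whose height is the signal (y axis, log scale) against the distance from the first TSS (x axis, kb along the gene), with thresholded summits in red and weaker pooled summits in grey. Blue bars are the genes, blue arrowheads the TSSs, and the dotted line the lowest thresholded signal, 110.1; Gapdh1 has no line within 1 kb of a TSS, and Pgk has 10 red lines.

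At the edge of the threshold, the summits just inside it were those beside CG12825 near Gapdh1 (111.0) and 3461 bp from Pgk (110.8). Just outside it were summits at ERR (106.9, past the gene), Eno (105.2), Pgk (103.8) and Pfk (103.6).

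Relative to the median of each whole list, the order of the genes could be set against the replicate spread. The promoter signal over the list median was 42.2 ± 3.20 (SD, n = 2) for Gapdh2, 24.9 ± 0.539 for Hex-A, 19.1 ± 0.964 for Eno and 7.71 ± 1.01 for Pgk. These 4 kept this order in both replicates, with no overlap between neighbours. It was 4.40 ± 0.405 for Pyk and 3.91 ± 1.74 for ERR, and these 2 changed places between replicates. In replicate 2 the ERR value is that of its internal summit. For Pfk it was 2.59 ± 0.112, for Pgi 2.12 ± 0.133 and for Tpi 2.06 ± 0.617, and Pgi and Tpi changed places too.

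**Figure D3:**
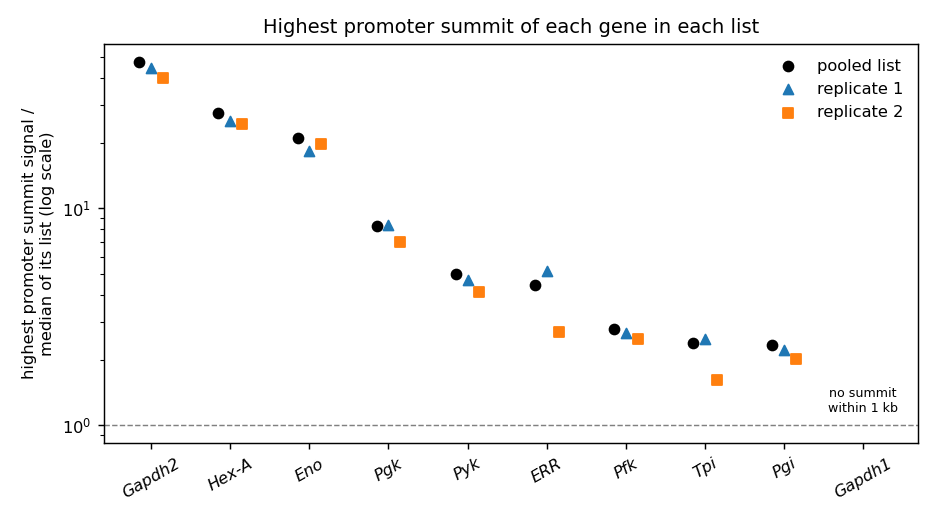
Signal of the highest promoter summit of each gene, divided by the median signal of the list it comes from (y axis, log scale), for the pooled list (circles), replicate 1 (triangles) and replicate 2 (squares). The values fall from 47.3 for Gapdh2 to 2.34 for Pgi in the pooled list, and ERR and Tpi show the widest gap between replicates.

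The replicates were matched by peak interval. Of the 17 promoter summits, 15 lay in peaks that overlapped one of the 7329 highest peaks of each replicate over at least 50% of both intervals, against 54.1% of all thresholded peaks. Summits that share an interval count together here, so the weaker Pgk summit at 132.0 is matched through its neighbour's interval, and the weaker Eno summit at 154.8 has in replicate 2 only the peak of the main summit, 187 bp away. The exceptions were the Tpi peak and the Pyk peak at 275.2. The Pyk peak spans only 140 bp, and its replicate ranks were 1889 and 2195. Without the rule on overlap length Pyk also matched.

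The summits lay mostly upstream of the TSS. Of the 9 highest promoter summits, 8 were upstream of the nearest TSS of the gene, against 74% of coding genes that have one, and Pfk was the exception. The median position was 169 bp upstream for these genes and 110 bp upstream for all coding genes with a promoter summit. Hex-A, Gapdh2, ERR and Eno, 4 of the 9, lay 100 to 200 bp upstream, a band chosen after the values were seen, against 23.5% of coding genes with a promoter summit.

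E-boxes lay at some of the promoter summits. Among the 17 promoter summits, 8 had CANNTG within 50 bp (at Pgk, Pyk, Eno, Pgi and ERR), against 37.8% of all thresholded summits. The highest summits of Gapdh2, Hex-A, Eno, Pyk, Pfk and Tpi had none. Among the 732 highest peaks the share was 34.4% and the median G and C content 29.7%. Of all windows, 10.7% had a G and C content at or below that at Gapdh2, and 4.90% at or below that at Hex-A. Of the other motifs searched on both strands, CAGCTG was in 1 promoter summit window (5.94% of all windows). ACGTG, the core of the hypoxia response element, was in 1 (7.67%), and GAGAG, the site of the Trithorax-like factor, in 2 (12.9%). TATAAA, the letters of a TATA box, was in 3 (19.4%), counted without regard to strand or distance to a TSS. None of the 17 windows had CAGATG (3.25% of all windows), CACGTG (1.12%), the nuclear receptor site AAGGTCA (0.628%), the promoter element TATCGATA (1.80%) or GGTCACAC (1.54%). The shorter AGGTCA, which the printed Gapdh2 and ERR windows hold, was not counted. The motifs of 6 letters that begin with CA are forms of CANNTG, and ACGTG lies within CACGTG.

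In windows from 250 bp before to 50 bp after each TSS, AAGGTCA, which ERR is known to bind in an extended form, occurred at 3 of the 24 TSSs, those of Pgk, Tpi and Hex-A, against 2.12% of coding TSSs. CANNTG occurred at 21 of 24, against 77.8%. CAGCTG occurred at 8 (17.9% of coding TSSs), CAGATG at 6 (11.1%) and GAGAG at 11 (33.1%). TATAAA occurred at 6 (42.2%), ACGTG at 4 (23.8%) and GGTCACAC at 1 (6.72%). CACGTG (4.01%) and TATCGATA (7.98%) occurred at none. Windows at TSSs of the same gene can overlap, so 1 site can count at more than 1 TSS.

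**Figure D4:**
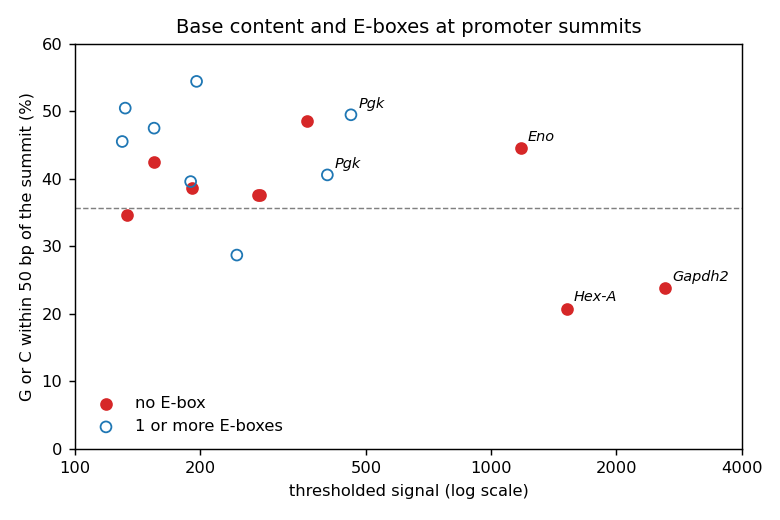
Share of G and C within 50 bp of each of the 17 promoter summits (y axis, %) against its thresholded signal (x axis, log scale), with filled points for windows without CANNTG and open points for windows with it. The dashed line is the median of all summit windows, 35.6%; Gapdh2 and Hex-A lie below it at 23.8% and 20.8%, and Eno lies above it at 44.6%.

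The other gene copies for the same steps mostly had no promoter summit. Besides Gapdh1, 12 paralogues were examined, and 1 of them had a thresholded promoter summit, CG9961, the Pgk copy 1945 bp from Pgk. That summit (110.8) lay 92 bp upstream of CG9961 and 72 bp upstream of the opposite gene Cwc25. No promoter summit was listed for the hexokinase copies Hex-C, Hex-t1 and Hex-t2, the pyruvate kinase copies CG7069, CG2964, CG7362, CG11249 and CG12229, the aldolase copy Ald2, or the phosphoglycerate mutase copies Pglym87 and CG7059. CG7069 starts 88 bp past the end of Pyk. Of all 13 copies, 11 have 1 TSS, and among coding genes with 1 TSS 25.8% had a promoter summit. In the longer pooled list, which reached 54.4% of coding genes, CG7362 also had a summit within 1 kb (99.0, rank 8312). A thresholded summit in the gene or within 5 kb was found for 5 of the 12, against 58.8% of coding genes.

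Promoter summits were also counted in neighbouring pathways. Of all coding genes 33.1% had one, and of those with 2 or more TSSs 53.3%. Among the other glycolytic enzymes, 4 of 9 had one, namely lactate dehydrogenase Ldh (860.2), Pfrx, which makes the activator of phosphofructokinase (299.0), the aldolase gene Ald1 (213.0) and the mutase gene Pglym78 (185.5). The 5 without one are all copies named above. Of 9 genes for glycogen and trehalose, the sugar stores of the fly, 6 had one. Glycogen phosphorylase Glyp (1675, rank 47) exceeded Hex-A, and trehalase Treh (974.4), phosphoglucomutase Pgm1 (464.6) and the branching enzyme AGBE (267.2) followed. In the pentose phosphate pathway 3 of 6 had one, CG8036, listed by RefSeq with the synonym Transk (1481), Taldo (163.6) and Pgd (154.7).

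Downstream of pyruvate, 12 of 16 genes of the citric acid cycle had a promoter summit, with Idh3g (981.4), Fum1 (833.9), mAcon1 (460.3) and Ogdh (247.3) the highest. Of 11 genes for glycerol phosphate, pyruvate entry and gluconeogenesis, 8 had one, led by Gpo1 (375.9), Gpdh1 (370.0), Pdp (274.7) and Pdhb (222.8). Without the paralogue and regulator lists, the lists held 51 genes, of which 33 (64.7%) had a promoter summit. At 7 of the 33 another gene's TSS was nearest to the highest summit (at Pepck1 by a tie), as at Treh (CG10527), Fum1 (ND-ASHI) and Pdhb (alpha-Man-Ib). Each of 4 hypoxia regulators had one, tgo (246.5), Hph (229.3), Vhl (175.1) and sima (131.5), and those of Hph and Vhl were nearer to another gene. The lists were chosen with earlier results of these data known and were not tested.

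**Figure D5:**
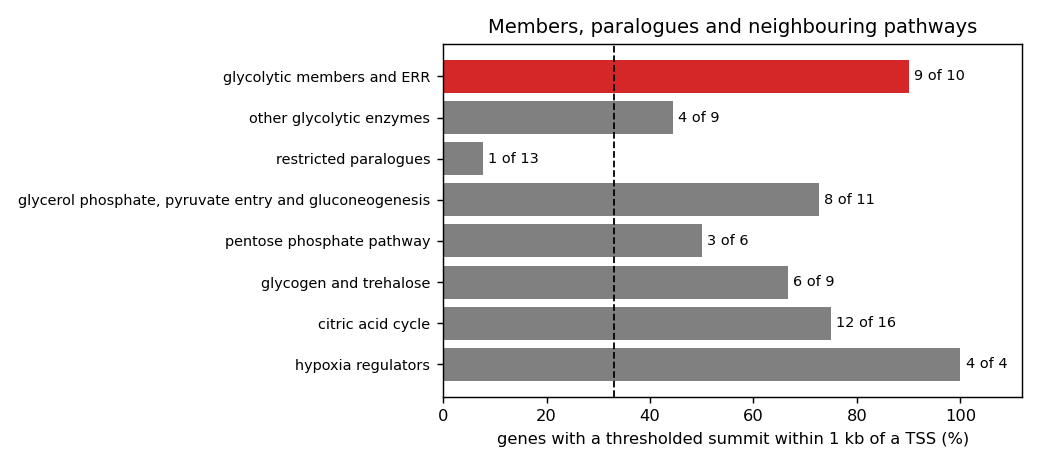
Percent of genes in each list that have a thresholded promoter summit (x axis), with the number of genes beside each bar and the share of all coding genes (33.1%) as a dashed line. Paralogues, Gapdh1 among them, are at 1 of 13, and Hex-C, Hex-t1, Hex-t2, Ald2 and Pglym87 are in both that list and the other glycolytic enzymes.

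The coding genes nearest in promoter signal to Gapdh2, Hex-A and Eno were read from the ranking of all coding genes. Next above Gapdh2 came CG14100 (2901) and the pair Ugalt and eIF2Bbeta (4045), and next below came px (2488) and Lk6 (2466). Around Hex-A were gish (1565), RluA-1 (1522), CG3437 and CG3552 with a shared summit (1515), and RapGAP1 (1510). Around Eno, which ties with Rrp40 through their shared summit, were Dic1 and Elp6 (1186), CG9147 and Fbw5 (1185), Mkk4 and SLIRP2 (1177), and C1GalTA (1160). The likeness is in the signal of the highest thresholded promoter summit alone, in 1 list.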

How the data were processed

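Peak lists on dm6 were used as the authors deposited them: 1 list for each replicate, 1 for the pooled replicates and 1 past the IDR threshold. Per the labels, chromatin was sonicated to 200 to 800 bp. The sources used here do not give the aligner, peak caller or IDR threshold. Each deposited peak has a signal value, a −log10 q value, which is the same for all thresholded peaks and was not used to rank, and a summit. A control library named in the labels was not analysed here, nor were the dm3 lists.

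Genes came from Ensembl release 115 without transposable elements, and sequence from the Release 6 assembly. Pyk is spelled PyK there. Peaks were ranked by signal. Summits within 1 kb of a TSS, and in genes with 5 kb flanks, were counted. Of the listed symbols, 6 matched through RefSeq synonyms, and symbols with no match were left out. The members, lists and motifs were chosen with earlier results of these data known. All 10 members, all paralogues, up to 4 genes of each list by signal, the nearest coding genes and those next in rank to the 3 highest members are named. Motifs were read on both strands within 50 bp of summits. With 1 group there was no contrast and no test. Counting, matching and motif code was tested on simulated data. Python 3.11.15, numpy 2.4.6 and pandas 2.3.3 were used.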

Additional observations from a re-analysis of the deposited data

How the results depend on the processing

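The count of 9 genes with a promoter summit was unchanged with windows of 500 bp and 2 kb, in all pooled peaks, without replicate 2 and with summits nearest to the gene's own TSS. It was 8 without replicate 1 (the 7329 highest peaks of replicate 2 alone), where Tpi was lost, and 6 in the highest 3664 peaks. The shares of all coding genes were 29.2%, 39.1% and 54.4% in the first 3 of these settings, 32.9% without replicate 2, 33.6% without replicate 1 and 19.1% in the highest 3664 peaks. The 2 kb window contains the 1 kb window, and the pooled list adds weaker peaks, so the promoter count could hardly fall in either. The count of 10 genes with a summit in the gene or within 5 kb fell to 6 in the gene span alone and to 6 in the highest 3664 peaks. The 33 pathway genes fell to 20 in the highest 3664 peaks. Summits matched in both replicates numbered 15, and 4 when 80% of both intervals had to overlap. E-box windows numbered 8, and 3 within 25 bp and 15 within 100 bp, where the window itself is shorter or longer. Shares over all coding genes or all thresholded peaks were computed at these other settings for the promoter count alone. The changed counts within 5 kb, of matched summits and of E-box windows therefore have no background to be read against. In replicate 2 alone the rank of the highest summit within 5 kb went from 5692 to 8692 at Tpi, from 2307 to 4382 at ERR, from 5910 to 6518 at Pgi and from 558 to 595 at Pyk.

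The ratio of promoter signals of Gapdh2 and Gapdh1 could not be given in any list, since Gapdh1 has no promoter summit, and the ratio within 5 kb was chosen after seeing the data, as were the comparisons by number of TSSs and by nearest TSS. No paired analysis was possible because there is 1 group. The unknown depth limits what the weak summits show, above all at Tpi, Pgi and Pfk.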

Other observations

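Closely set summits had a common spacing. Of 489 adjacent thresholded summits up to 500 bp apart, 345 (70.6%) lay 199 to 209 bp apart, and none in the list lay nearer than 199 bp. At the glycolytic genes 5 of 6 such pairs lay in that band, at Gapdh2, Pgk and Pyk, and the pair at Eno lay 255 bp apart.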
